A study of Mus musculus with 3 samples.

Results

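Brain cells collected 3 d after a transient ischemic attack (TIA) were compared directly with cells collected 24 h after it, to describe which transcripts fell back, which persisted and which first rose between these times. The members are the libraries labelled 24h post stroke and 3d post stroke, 2 of the 3 single-cell RNA libraries of the study, and all of their cells with at least 500 detected genes and at most 7% mitochondrial UMIs (unique molecular identifiers, which count captured RNA molecules). These libraries held 6006 of the 10024 cells kept in the study, 1225 at 24 h and 4781 at 3 d. Every mouse was WT and of strain C57BL6J. In both TIA groups a filament closed the middle cerebral artery for 5 min, and blood flow then returned. The mice labelled naive gave the remaining library of 4018 cells, which entered the clustering and is given here only as a level beside the TIA libraries. A figure of the study calls its control Sham, so it is not known here if these mice had an operation, and a naive level below may be that of operated mice. Each library pooled 3 mice before sequencing, and the figure legends of the study give the animals as males. With 1 pooled library at each time there is no measure of the spread between mice, so no test was possible. The time after TIA and the library cannot be told apart, and all intervals are exact 95% intervals that cover counting error only.

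Cells were dissociated from brain tissue freed of white matter and meninges, sorted as live cells and sequenced from the 3′ ends of their RNA. The deposited table held 12919691 UMIs in 1619 cells at 24 h, 48636436 UMIs in 5505 cells at 3 d and 37987228 UMIs in 4804 naive cells. After filtering, the median cell held 8123 UMIs at 24 h, 7868 at 3 d and 7750 in the naive library. Within each class compared the cells at 24 h were deeper than those at 3 d, with medians of 9335 and 7649 UMIs in microglia, 11495 and 9307 UMIs in astrocytes, 16150.5 and 12901 UMIs in oligodendrocytes, 5645 and 4333 UMIs in endothelial cells, 5275 and 3906 UMIs in pericytes and 8700.5 and 8301 in neurons. The libraries differed in other ways that bear on the comparison. Cells above 7% mitochondrial UMIs made up 21.0% of the deposited cells at 24 h, 11.4% at 3 d and 11.8% in the naive library. Barcodes scored as doublets, droplets that may hold more than 1 cell, made up 0.57% of the kept cells at 24 h (7 cells), 2.97% at 3 d (142 cells) and 2.96% in the naive library (119 cells). The libraries at 24 h and 3 d shared 4 cell barcodes, 2 of them among kept cells. Summed erythroid markers, genes of red blood cells, were at 27.3 CPM at 24 h in endothelial cells. They were at 20929 CPM at 3 d and 31887 CPM in the naive library. It is not known here if the 24 h library was perfused or dissociated on another day or by another protocol.

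A brief loss of blood flow starves brain tissue of oxygen and glucose, and its return is followed by a stress response that reaches glia, vessels and neurons. Adrenal glucocorticoid hormones released under stress enter the brain and act through a nuclear receptor that switches on genes such as Sgk1, Fkbp5 and Tsc22d3. Microglia, the resident immune cells of the brain, answer injury with cytokines and can enter a state driven by type I interferon, in which antiviral genes are switched on.

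Clusters were named after the cell type with the most marker genes enriched in them, and 6 classes held at least 50 cells in both TIA libraries. Each of the 6 carried its own defining markers. Slc1a2 was the most abundant astrocyte marker in astrocytes, Flt1 the most abundant endothelial marker in endothelial cells, and Vtn and Stmn2 held this place in pericytes and neurons. None of these marker lists had a member at 0 UMIs in its own class at 3 d. At 24 h Slc17a7, a glutamate transporter of excitatory neurons, was at 0 UMIs in the neurons. The neurons also held neuronal progenitor markers, led by Sox11 at 1924 CPM at 24 h and 2104 CPM at 3 d. Stmn2 was at 1840 and 1588 CPM, so these cells need not be mature neurons. At resolution 1 the larger neuron cluster, with Stmn2, Tubb3, Gad2 and Dcx among its leading genes, held 84 and 289 cells. Astrocytes made up 19.5% (239 cells, interval 17.3 to 21.8%) of the kept cells at 24 h and 29.8% (1427 cells, interval 28.6 to 31.2%) at 3 d. Microglia made up 22% (269 cells, interval 19.7 to 24.4%) at 24 h and 25.2% (1207 cells, interval 24.0 to 26.5%) at 3 d. The share of astrocytes was thus higher at 3 d beyond counting error, while the intervals of microglia met. Endothelial cells went from 19.3% (236 cells, interval 17.1 to 21.6%) to 13.1% (625 cells, interval 12.1 to 14.1%). Pericytes, the contractile cells wrapped around capillaries, went from 14.9% (182 cells, interval 12.9 to 17.0%) to 6.84% (327 cells, interval 6.14 to 7.59%). Both vascular classes thus took a smaller share at 3 d than at 24 h. In the naive library the same shares were 7.76% for endothelial cells and 3.96% for pericytes. Oligodendrocytes made up 5.88% (72 cells, interval 4.63 to 7.34%) and 5.23% (250 cells, interval 4.62 to 5.90%), and neurons 9.14% (112 cells, interval 7.59 to 10.9%) and 7.82% (374 cells, interval 7.08 to 8.62%), with intervals that met in both classes. Under the looser cell filter neurons made up 5.31% and 5.24%. These shares depend on which cells survived dissociation and sorting, and their part in the differences was not tested.

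For each class, UMIs were summed over its cells in a library and scaled to CPM, the counts per 1000000 UMIs. Genes with a mean of at least 50 CPM over both TIA libraries were compared by the log2 ratio of 3 d over 24 h, and a gene is called higher or lower where the levels differ at least 2-fold. The median log2 ratio of all genes compared lay between -0.02 in endothelial cells and 0.04 in microglia, a value that scaling each library to a common total holds near 0. Between 96.4% of the genes in endothelial cells and 99.7% in microglia stayed within 2-fold. An alternative chosen after seeing the data left out the 5 cells richest in each gene at 24 h and the same share of the class at 3 d, between 9 cells in pericytes and 30 in astrocytes.

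**Figure D1:**
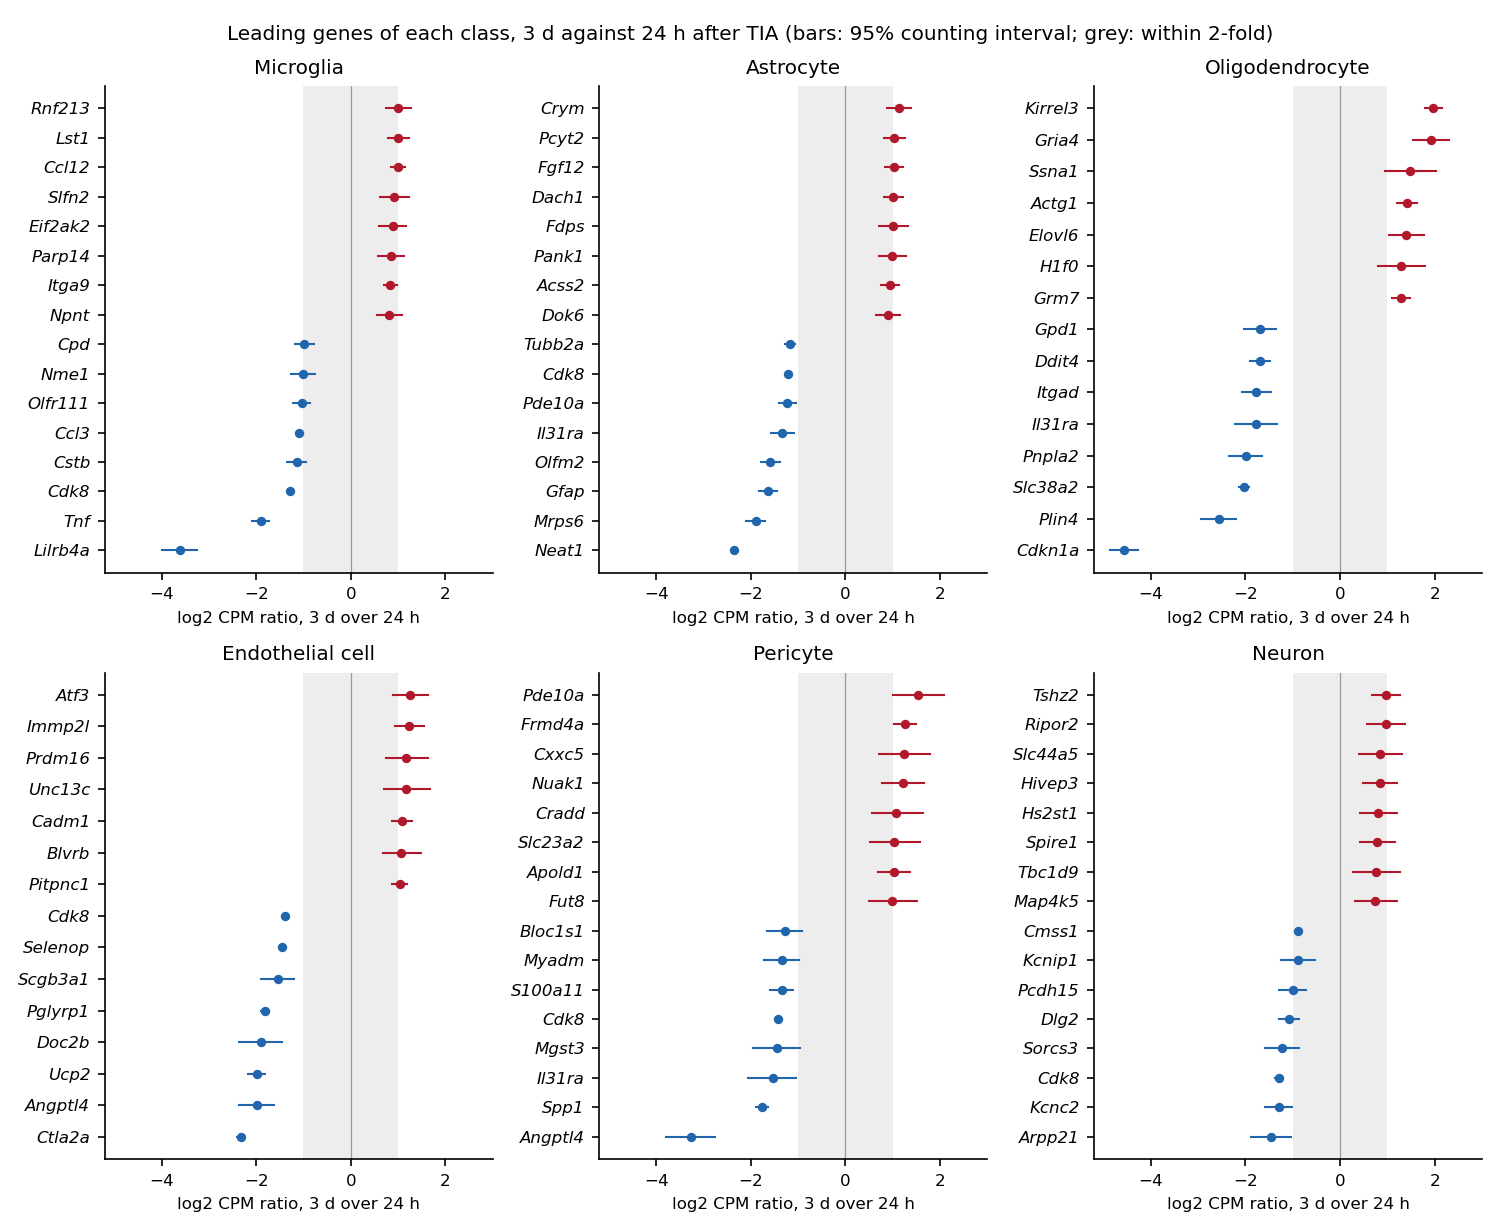
Log2 ratio of CPM at 3 d over 24 h for genes from among the 8 with the largest and the 8 with the smallest ratio in each of the 6 classes under the naming rule. Points are ratios of 1 pooled library a side, bars are exact 95% counting intervals, blue is lower and red is higher at 3 d, and the grey band spans 2-fold. Cdkn1a in oligodendrocytes has the lowest value at -4.56, and Cdk8 lies below the band in the 5 panels that show it.

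Oligodendrocytes, the myelin-forming cells, had the largest count of lower genes of the 6 classes at the floor of 50 CPM, with several glucocorticoid-responsive genes among them. In all, 52 of 3545 genes were lower at 3 d (1.47%) and 57 were higher (1.61%). Cdkn1a (ENSMUSG00000023067, chr17:29090976-29100727, plus strand, GRCm38) encodes an inhibitor of cyclin-dependent kinases that damage and stress induce. It measured 0.304 CPM in the naive library, 739 CPM at 24 h and 31.3 CPM at 3 d, a log2 ratio of -4.56 (interval -4.86 to -4.27). The transcript was thus close to absent in naive oligodendrocytes, abundant at 24 h and low again at 3 d. It rested on 888 UMIs at 24 h and 109 at 3 d. With each cell thinned to 2000 UMIs, Cdkn1a was seen in 77.5% (55 of 71 cells, interval 66.0 to 86.5%) of oligodendrocytes at 24 h and 4.80% (12 of 250 cells, interval 2.50 to 8.23%) at 3 d. In neurons, where the gene lay under the floor, the thinned share was 1.00% (1 of 100 cells, interval 0.0250 to 5.45%) and 0.552% (2 of 362 cells, interval 0.0670 to 1.98%). The median depth before thinning was 16150.5 and 12901 UMIs in oligodendrocytes and 8700.5 and 8301 in neurons. The share at 24 h was therefore far higher in oligodendrocytes than in neurons, and most oligodendrocytes at 24 h held the transcript. RNA from outside the cells was not estimated. Among the other lower genes were 3 with roles in handling fat. Plin4, a coat protein of lipid droplets, measured 3.04, 163 and 27.6 CPM in the naive library, at 24 h and at 3 d (log2 ratio -2.56, interval -2.93 to -2.21). Pnpla2, the lipase that starts the breakdown of stored triglyceride, measured 24.9, 136 and 34.2 CPM in the same order (-2.00). Gpd1, a glycerol-3-phosphate dehydrogenase, went through 32.5, 133 and 41.4 CPM (-1.69). All 3 genes were highest at 24 h. At 3 d Pnpla2 and Gpd1 were back near their naive levels, while Plin4 remained above its own. The fasting-type lipid use list had 3 members past the floor in this class, of which Plin4 was lower and 2 had a ratio above 0. Its median was 0.28, while its summed level was 413 CPM in the naive library, 604 CPM at 24 h and 463 CPM at 3 d. These members are too few to read a fall or a rise of that list. Slc38a2, a transporter of small neutral amino acids, had 536, 1675 and 410.4 CPM, and its level at 3 d lay below the naive one (log2 ratio -2.03). Itgad, an integrin subunit, had 7.90, 163 and 48.0 CPM (-1.77). Ddit4, an inhibitor of mTORC1 signalling induced by hypoxia and by glucocorticoids, had 33.1, 343 and 106 CPM (-1.69, interval -1.90 to -1.48). Itgad and Ddit4 had thus fallen by 3 d but were still above their naive levels.

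The genes named here as higher at 3 d in oligodendrocytes all had their lowest level at 24 h, below the naive library, and came back near or past it. Kirrel3, a cell adhesion molecule, measured 630.0 CPM in the naive library, 236 CPM at 24 h and 926 CPM at 3 d (log2 ratio 1.97, interval 1.79 to 2.15), with 58.8% of its UMIs at 24 h and 13.8% at 3 d in the 5 richest cells. Gria4, an AMPA-type glutamate receptor subunit, measured 214, 54.1 and 204 CPM in that order (1.91). Actg1, a cytoskeletal actin, measured 317, 161 and 427 CPM (1.41). Elovl6, an enzyme that elongates fatty acids, showed the same course with 173, 57.4 and 151 CPM (1.40). Ssna1 (1.48), the linker histone gene H1f0 (1.28) and the glutamate receptor gene Grm7 (1.28) were also among the leading higher genes. Among 22 myelin and oligodendrocyte genes past the floor, Opalin, a myelin membrane protein, was the single member called higher, at 980.3, 469 and 1135 CPM (log2 ratio 1.28, interval 1.15 to 1.41). No member was called lower. The median of the list was 0.05 against 0.01 over all genes compared in the class, with 13 members above 0 and 9 below. Without the cells scored as doublets, 32 of the 57 higher genes and 44 of the 52 lower genes were still called. With the same share of the richest cells left out in both libraries 30 genes were higher and 49 lower. Oligodendrocytes at 3 d also carried more RNA of several other cell types, with 782 CPM summed over 10 astrocyte markers against 257 CPM at 24 h and 545 CPM in the naive library. In the same order, summed erythroid markers were at 4817, 14.1 and 6566 CPM, endothelial markers at 156, 10.8 and 86.6 CPM and pericyte markers at 114, 9.15 and 24.9 CPM. The sum of 10 neuron markers, led by Tubb3, was lower at 3 d, with 145, 266 and 123 CPM, though 8 of the 10 were higher. Doublets made up 1.39% of oligodendrocytes at 24 h and 8.80% at 3 d. The part of this RNA in the higher genes was not tested.

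The glucocorticoid response list, 28 genes that the hormone is known to raise in brain and other tissues, had a median below 0 in 5 of the 6 classes. In oligodendrocytes 9 of its 16 members past the floor were lower at 3 d, against 1.47% of all genes compared, and none was higher, with a median log2 ratio of -1.15 against 0.01 over all genes. Cdkn1a, Ddit4 and Plin4, described above, are among the 9. Of the 28 genes 13 are also on other lists, and the lists were chosen with earlier results of these data known. The summed level of the list in oligodendrocytes was 1802 CPM in the naive library, 6975 CPM at 24 h and 3822 CPM at 3 d, so the list came down by less than the distance it stood above the naive level. Sgk1 (ENSMUSG00000019970, chr10:21882184-21999903, plus strand, GRCm38), a kinase that regulates ion transport, had the highest level of the list there, with 108 CPM in the naive library, 1697 CPM at 24 h and 838 CPM at 3 d (log2 ratio -1.02, interval -1.10 to -0.94). It fell 2-fold, a call that was lost under some of the alternatives, and still stood well above the naive level at 3 d. In astrocytes 4 of 17 members were lower, against 0.68% of all genes, and none was higher, with a median of -0.44 against -0.00 over all genes. In endothelial cells 4 of 18 were lower (all genes 0.844%) and the median was -0.34 against -0.02. In pericytes 2 of 14 were lower (all genes 0.564%), 1 was higher (Mt1) and the median was -0.52 against -0.01. The astrocyte, endothelial and pericyte members thus leaned down. In microglia 0 of 15 members were lower (all genes 0.28%) and the median was -0.21 against 0.04. In neurons 4 members passed the floor, none was lower (all genes 0.347%) and the median was 0.13 against 0.01. Whether the classes differ was not tested. Fkbp5, a co-chaperone of the glucocorticoid receptor that the receptor itself induces, shows how far the return had gone. In astrocytes it measured 4.61 CPM in the naive library, 110 CPM at 24 h and 39.0 CPM at 3 d (log2 ratio -1.50, interval -1.70 to -1.29). In microglia it measured 94.7 CPM in the naive library, 649.8 CPM at 24 h and 395 CPM at 3 d, a log2 ratio of -0.72 (interval -0.80 to -0.64). Fkbp5 fell past 2-fold in astrocytes but not in microglia, and in both it remained several times its naive level at 3 d. Tsc22d3, an anti-inflammatory transcription regulator, measured 103, 397 and 175 CPM in endothelial cells (log2 ratio -1.18, interval -1.36 to -1.01) and 51.7, 186 and 117 CPM in microglia (-0.67, interval -0.83 to -0.52). It was also above the naive level at both times in both classes.

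The promoters of 2 members of the glucocorticoid list are shown because they hold a motif of the kind the glucocorticoid receptor binds. The palindrome GNACA, 3 bases of any kind and TGTNC, in which N is any base, reads the same on both strands and was searched in 250 bases before to 50 bases after each start in RefSeq promoters (GRCm38.p6). It was found in 156 of 32851 promoters (0.475%). Of the 28 genes on the list 23 had a promoter in this table and 2 of these held the motif, Sgk1 and Mt1, a metallothionein that binds zinc and copper. A gene counts here if any of its promoters holds the motif, while the 0.475% is a share of single promoters. In oligodendrocytes Mt1 measured 359 CPM in the naive library, 1168 CPM at 24 h and 674 CPM at 3 d (log2 ratio -0.79, interval -0.89 to -0.70). It did not pass 2-fold there and was called higher in pericytes (1.77). Capitals mark the motif, which starts 188 bases before the start in Sgk1 (chr10:21993640-21993939, plus strand) and 94 bases before it in Mt1 (chr8:94178839-94179138, plus strand). A match describes the letters and not binding.
Sgk1: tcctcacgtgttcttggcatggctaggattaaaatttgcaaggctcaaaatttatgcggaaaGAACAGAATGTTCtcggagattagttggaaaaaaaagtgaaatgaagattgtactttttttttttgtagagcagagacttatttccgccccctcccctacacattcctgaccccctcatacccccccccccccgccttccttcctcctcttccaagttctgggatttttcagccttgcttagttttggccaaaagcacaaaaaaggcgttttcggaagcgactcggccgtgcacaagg
Mt1: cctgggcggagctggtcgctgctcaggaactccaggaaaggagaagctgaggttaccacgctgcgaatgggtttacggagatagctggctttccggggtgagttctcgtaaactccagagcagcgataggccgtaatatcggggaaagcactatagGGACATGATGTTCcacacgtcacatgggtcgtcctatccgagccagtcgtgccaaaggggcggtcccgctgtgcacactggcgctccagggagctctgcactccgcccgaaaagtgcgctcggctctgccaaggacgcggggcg

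**Figure D2:**
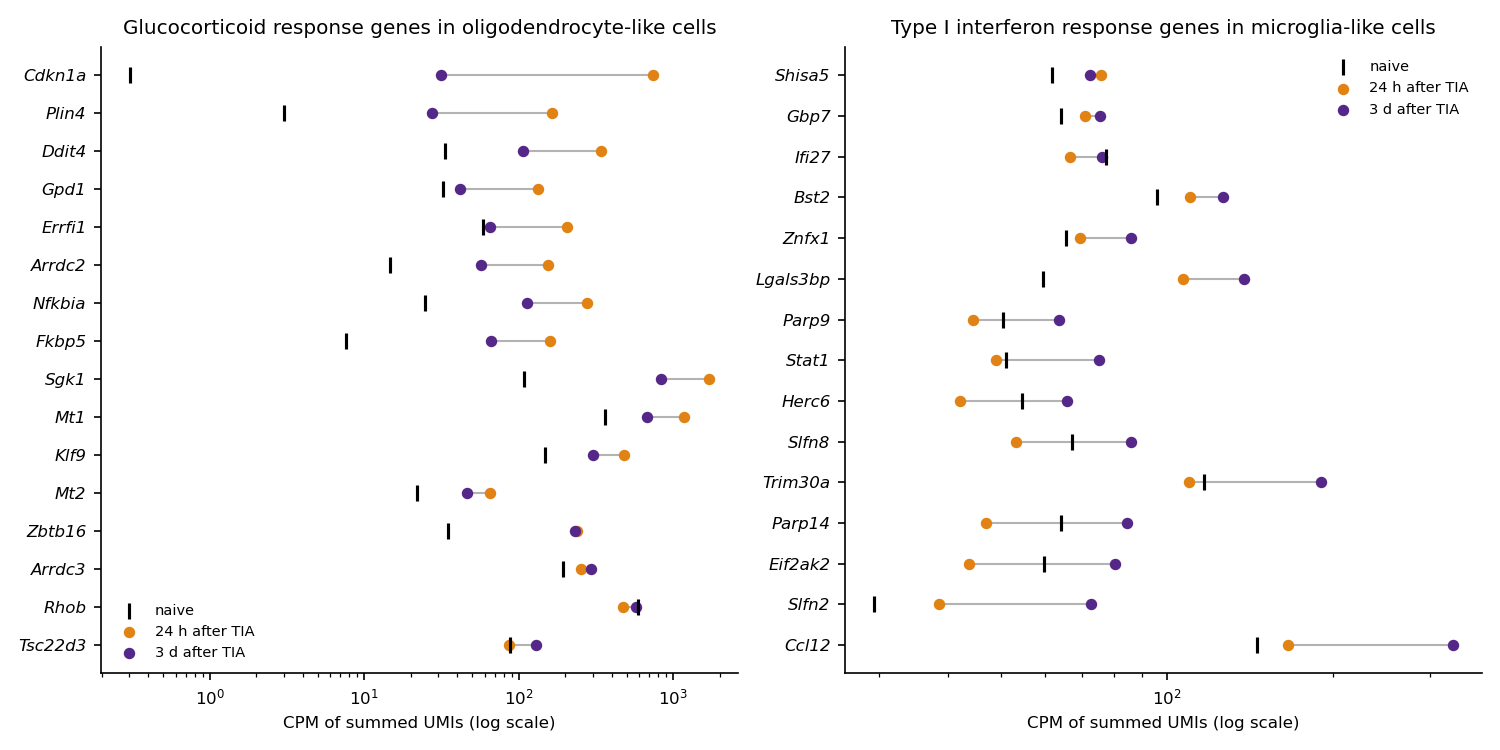
CPM of summed UMIs on a log axis in the naive library (black ticks), at 24 h (orange) and at 3 d (purple), 1 pooled library each, for every member past the floor of the glucocorticoid response list in oligodendrocytes (left) and the type I interferon list in microglia (right), ordered by ratio. Most glucocorticoid members lie lower at 3 d than at 24 h, and 14 of 15 interferon members lie higher.

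In astrocytes the reactive markers Gfap and Vim were lower at 3 d than at 24 h, as were Neat1, Cdkn1a and Nfkbia. In this class 25 of 3674 genes were lower at 3 d (0.68%) and 14 were higher (0.381%). Which side was larger depended on the setting, with 21 lower and 16 higher with the same share of the richest cells left out in both libraries, 59 and 68 at a floor of 20 CPM, 878 and 1342 without a floor and 12 and 39 without 5 cells a library, which takes 2.09% of astrocytes at 24 h and 0.350% at 3 d. Gfap (ENSMUSG00000020932, chr11:102887336-102900912, minus strand, GRCm38), the intermediate filament that marks reactive astrocytes, measured 25.7 CPM in the naive library, 124 CPM at 24 h and 40.1 CPM at 3 d (log2 ratio -1.63, interval -1.83 to -1.44). Vim, another intermediate filament of reactive glia, measured 27.1, 91.7 and 35.9 CPM in that order (-1.35, interval -1.57 to -1.13). They were the only members of the 39-gene reactive astrocyte list past the floor in this class, and both fell towards the naive level. Neat1, a nuclear long noncoding RNA that builds paraspeckles and rises under stress, measured 148 CPM in the naive library, 1256 CPM at 24 h and 246 CPM at 3 d (log2 ratio -2.35, interval -2.42 to -2.29). Cdkn1a measured 1.12, 106 and 6.73 CPM in that order (-3.98, interval -4.33 to -3.65). Nfkbia, the inhibitor that holds NF-kappaB in the cytoplasm, measured 38.1, 161 and 62.0 CPM (-1.38). In these genes the 24 h library stood far above the others and the 3 d library was nearer to the naive one, yet above it. Mrps6, a mitochondrial ribosome protein (-1.90), Olfm2 (-1.58), the cytokine receptor gene Il31ra (-1.33), the phosphodiesterase gene Pde10a (-1.23) and the tubulin gene Tubb2a (-1.17) were among the leading lower genes. With the same share of the richest cells left out in both libraries Pde10a had -1.26 and Tubb2a -1.02. Ldha, the lactate dehydrogenase that lets glycolysis run without oxygen, was the 1 member of 16 hypoxia and glycolysis genes past the floor to be called lower, at 69.2, 119.8 and 58.1 CPM (log2 ratio -1.05, interval -1.23 to -0.86). The list leaned down with a median of -0.34 against -0.00 over all genes, and no member was higher. Cryab, a small heat shock protein, was the 1 of 10 heat shock genes called lower (-1.17; list median -0.36). Mfsd2a, a transporter of the omega-3 lipid DHA, and the stress regulator Nupr1 also fell, to log2 ratios of -1.06 and -1.07. None of 23 astrocyte homeostasis genes passed 2-fold in either direction, and their median was -0.03.

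Cholesterol and fatty acid synthesis genes leaned up in astrocytes, the cells that supply cholesterol to neurons. Of 21 members past the floor 18 had a ratio above 0, 1 was called higher and none was lower, with a median of 0.58 against -0.00 over all genes, of which 49.3% lay above 0. The summed level was 4043 CPM in the naive library, 3439 CPM at 24 h and 4352 CPM at 3 d. The list was thus lowest at 24 h and back above the naive level at 3 d. The lists of homeostatic microglia and complement genes also leaned up in this class, the first with a median of 0.70 over 8 members and the other with 0.74 over 3. In astrocytes 8 microglial markers summed to 319 CPM at 24 h and 523 CPM at 3 d, with 7 of the 8 higher, and doublets were 0.418% and 2.31% of the class. The part of either in these 2 lists was not tested. Fdps, which makes farnesyl pyrophosphate on the way to cholesterol, was the member called higher, with 76.1 CPM in the naive library, 34.1 CPM at 24 h and 68.3 CPM at 3 d (log2 ratio 1.00, interval 0.70 to 1.32). Hmgcs1, an early enzyme of the same pathway, measured 188, 93.1 and 166 CPM (0.84, interval 0.65 to 1.03), and Idi1 measured 118, 59.7 and 106 CPM (0.83, interval 0.60 to 1.07). Neither of these passed 2-fold, and all 3 genes had their lowest level at 24 h and were still below the naive one at 3 d. Pcyt2, an enzyme that makes phosphatidylethanolamine, was called higher with 109, 66.4 and 136 CPM (log2 ratio 1.04), as were Fgf12 (1.02) and Dach1 (1.01). Crym, which binds thyroid hormone, was also called (1.13), but 76.4% of its UMIs at 24 h lay in 5 cells and with the same share of the richest cells left out in both libraries its ratio was 1.69. Pank1 (0.99), the acetyl-CoA synthetase gene Acss2 (0.94) and Dok6 (0.90) came just under 2-fold. Without doublets 24 of the 25 lower and 10 of the 14 higher genes were still called.

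Endothelial cells, which line the vessels and form the blood-brain barrier, had genes past 2-fold in both directions, and which side was larger depended on the setting. In this class 33 of 3909 genes were lower at 3 d (0.844%) and 107 were higher (2.74%). Ctla2a (ENSMUSG00000044258, chr13:60934155-60936625, minus strand, GRCm38), an inhibitor of cathepsin proteases, measured 699.9 CPM in the naive library, 3653 CPM at 24 h and 730.0 CPM at 3 d (log2 ratio -2.32, interval -2.40 to -2.25). Its level at 3 d was back beside the naive one. Selenop, the selenium carrier, measured 777, 2426 and 887 CPM in that order (-1.45). Pglyrp1, a secreted protein that binds bacterial peptidoglycan, measured 764, 1749 and 498 CPM (-1.81) and ended below the naive level. Scgb3a1, a secretoglobin, measured 9.75, 117 and 40.2 CPM (-1.55), and the calcium sensor gene Doc2b 3.25, 83.3 and 22.3 CPM (-1.90). Both were nearly absent in the naive library and in part still present at 3 d. Some genes that switch cells to burning fat, as in fasting, were lower too. Of 11 members of that list past the floor 3 were lower and none was higher (median -0.26 against -0.02 over all genes). Angptl4 (ENSMUSG00000002289, chr17:33773750-33781830, minus strand, GRCm38), an inhibitor of lipoprotein lipase, measured 7.80 CPM in the naive library, 129 CPM at 24 h and 32.4 CPM at 3 d (log2 ratio -1.99, interval -2.36 to -1.63). Ucp2, a mitochondrial carrier, measured 141, 530.2 and 134 CPM (-1.99). Ucp2 ended near the naive level while Angptl4 stayed above it. Sult1a1, a sulfotransferase on the glucocorticoid list, measured 24.0, 237 and 94.2 CPM (-1.33). Vwf, the clotting factor that endothelium releases when activated, measured 122 CPM in the naive library, 454 CPM at 24 h and 215 CPM at 3 d (log2 ratio -1.07, interval -1.23 to -0.91). The endothelial activation list had 2 of 8 members lower and a median of -0.64, while its summed level was 4099 CPM in the naive library, 3463 CPM at 24 h and 3501 CPM at 3 d, nearly the same at both times after TIA. Its other lower member was Lcn2, an iron-trapping acute phase protein, at 2.60, 137 and 24.2 CPM, with 76.2% of its UMIs at 24 h in 5 cells. Adm, a vessel-widening peptide that hypoxia induces, was the 1 of 20 hypoxia and glycolysis genes called lower, at 37.0, 134 and 64.7 CPM (-1.05; list median -0.32). Extracellular matrix genes leaned the same way, with 11 of 12 below 0 and a median of -0.52, though 0 passed 2-fold. The blood-brain barrier list had 0 of 26 members past 2-fold in either direction and a median of -0.19.

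Some endothelial transcripts that were high at 24 h stayed above their naive level at 3 d. Cebpd, a transcription factor of the acute phase response, measured 68.2 CPM in the naive library, 351 CPM at 24 h and 276 CPM at 3 d (log2 ratio -0.35, interval -0.51 to -0.18). In pericytes it measured 155, 573 and 393 CPM (-0.54, interval -0.71 to -0.37). Per1, a clock gene that glucocorticoids also induce, measured 42.2, 84.8 and 77.9 CPM in endothelial cells (-0.12, interval -0.45 to 0.21). None of these values passed 2-fold between the TIA libraries, and each stayed above the naive level at 3 d. In oligodendrocytes Apod, a lipid-binding apolipoprotein of stressed glia, did likewise with 2402, 6642 and 4359 CPM (-0.61, interval -0.65 to -0.57). Zbtb16, a transcription factor induced by glucocorticoids, measured 5.53, 153 and 79.2 CPM in pericytes (-0.95, interval -1.31 to -0.59), a drop close to 2-fold that left it above the naive level. The genes that were higher at 3 d in endothelial cells depended on few cells. Without doublets 22 genes were called higher, 14 of them among the 107, while 25 of the 33 lower genes were still called and 29 were called lower in all. There were thus fewer higher than lower genes without doublets, as also without regression (22 higher, 25 lower) and under the looser cell filter (20 and 25), and more higher than lower ones at resolution 1 (27 and 23) and with the TIA libraries clustered alone (67 and 26). With the same share of the richest cells left out in both libraries they were 22 and 33. Atf3, a stress transcription factor, measured 112 CPM in the naive library, 54.5 CPM at 24 h and 130.1 CPM at 3 d (log2 ratio 1.25, and 0.89 without doublets). Cadm1, an adhesion molecule, measured 227, 172 and 362 CPM (1.08, and 0.45). Leaving out the doublets thus took both genes under 2-fold. Of other leading genes Immp2l (1.23), Prdm16 (1.17) and Pitpnc1 (1.03) also came under 2-fold without doublets, whereas Unc13c (1.17) and Blvrb (1.07) had 1.02 and 1.19. Blvrb, an enzyme of heme breakdown, had 0.40 to 0.49 under another cell filter or clustering. Endothelial cells at 3 d carried more erythroid, microglial and astrocyte marker RNA than at 24 h. The summed level of 7 erythroid markers was 20929 CPM at 3 d, 27.3 CPM at 24 h and 31887 CPM in the naive library, with the hemoglobin gene Hbb-bs the most abundant of them. For 8 microglial markers the sums were 1049, 361 and 855 CPM in that order, with all 8 higher at 3 d and none at 0. For 10 astrocyte markers, led by Slc1a2, they were 2054, 803 and 1318 CPM, with all 10 higher at 3 d and none at 0. Not each type was higher, since 9 pericyte markers summed to 144 CPM at 3 d and 242 CPM at 24 h (6 of the 9 lower), and 10 oligodendrocyte markers to 636 and 843 CPM, though 9 of these 10 were higher. At 24 h the erythroid genes Hbb-bt and Slc4a1 were among those at 0. At resolution 1 a separate cluster took the name of erythroid cells, with Hbb-bt and Hba-a2 leading and 5 endothelial markers enriched as well. It held 67 naive cells, 9 at 24 h and 54 at 3 d. How many of them lay among the endothelial cells compared here was not examined. The share of doublets among endothelial cells was 0.847% at 24 h and 5.44% at 3 d. The part of this RNA in the 107 higher genes was not tested beyond the alternatives given.

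**Figure D3:**
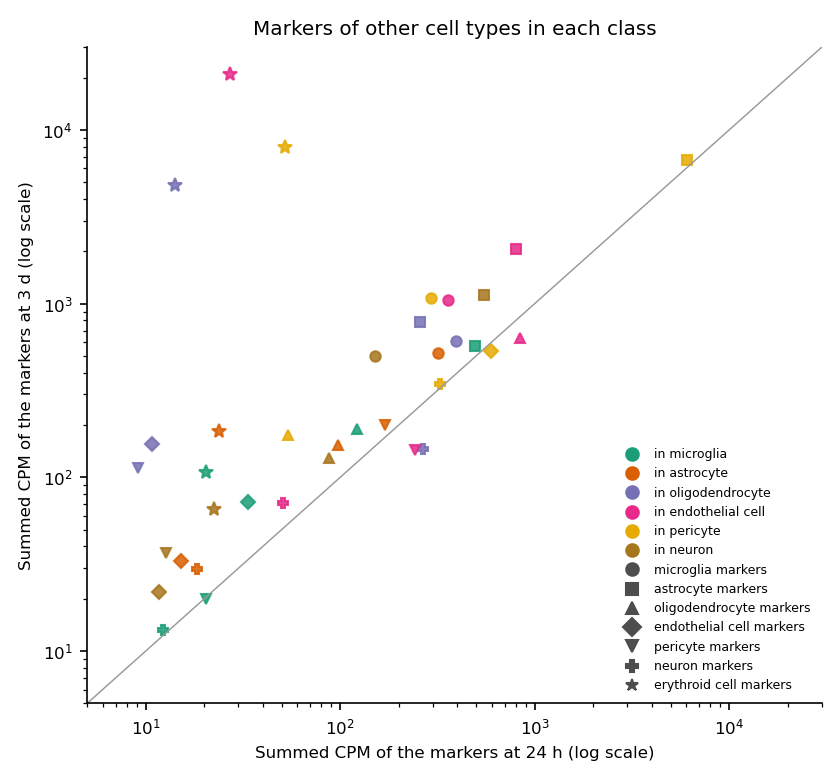
Summed CPM of the marker genes of other cell types (symbols) in each class (colours) at 24 h (horizontal, log scale) and 3 d (vertical, log scale), 1 pooled library each. The line marks equal levels. Erythroid markers in endothelial cells, oligodendrocytes and pericytes lie far above the line.

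In pericytes Angptl4 was lower at 3 d, as in endothelial cells. Here 23 of 4079 genes were lower at 3 d (0.564%) and 104 were higher (2.55%). Angptl4 measured 1.38 CPM in the naive library, 244 CPM at 24 h and 25.5 CPM at 3 d (log2 ratio -3.26, interval -3.79 to -2.76). Spp1 (ENSMUSG00000029304, chr5:104435118-104441050, plus strand, GRCm38), the secreted matrix protein osteopontin, measured 91.2 CPM in the naive library, 1722 CPM at 24 h and 507 CPM at 3 d (-1.77, interval -1.89 to -1.64). Timp3, an inhibitor of matrix metalloproteinases, measured 214, 943 and 437 CPM (-1.11, interval -1.26 to -0.96). These 3 genes fell past 2-fold and stayed above the naive level at 3 d. Timp3 was the single lower member among 17 matrix genes past the floor (median -0.23 against -0.01 over all genes), and the list summed to 19423 CPM in the naive library, 18917 CPM at 24 h and 17683 CPM at 3 d. S100a11, a calcium-binding protein, measured 216, 404 and 158 CPM in the naive library, at 24 h and at 3 d (log2 ratio -1.35), and Mgst3, a microsomal glutathione transferase, 66.3, 98.5 and 36.2 CPM (-1.44). Both ended below the naive level. Il31ra (-1.54), Myadm (-1.34) and Bloc1s1 (-1.28) were also among the leading lower genes. Trp53inp1, a target of the tumour suppressor p53, was lower with 20.7, 117 and 51.0 CPM (-1.20), as was Ddit4 with 19.3, 121 and 57.0 CPM (-1.09). The contractile list had 2 of 11 members lower, Acta2 and Tagln, but 96.5% and 92.3% of their UMIs at 24 h lay in 5 cells, and with the same share of the richest cells left out in both libraries their ratios were 0.92 and -1.34. Of the 104 higher genes 11 were still called without doublets, when 15 genes were called higher in all, and of the 23 lower genes 18, when 21 were called lower. With the same share of the richest cells left out in both libraries 14 genes were higher and 29 lower. Doublets made up 0 of the 182 pericytes at 24 h and 5.50% of the 327 at 3 d. Cxxc5, a zinc finger protein that dampens Wnt signalling, measured 52.5 CPM in the naive library, 38.4 CPM at 24 h and 90.6 CPM at 3 d (log2 ratio 1.24, interval 0.71 to 1.79, and 1.21 without doublets). Nuak1, a kinase related to AMPK, measured 81.5, 55.2 and 128 CPM (1.21, and 1.31), and Apold1, an early response gene of vessels, 149, 102 and 206 CPM (1.02, and 1.17). With all cells these 3 genes had the highest level of the 3 libraries at 3 d, and without doublets they were still past 2-fold between the TIA libraries. Frmd4a had 1.25 with doublets and 0.38 without, Cradd 1.08 and 0.93, and the vitamin C transporter gene Slc23a2 1.03 and 0.76. Pde10a had 1.53, and -0.054 when the cells of the TIA libraries were clustered alone. Fut8 came just under 2-fold (0.99). Summed microglial markers were at 294 CPM at 24 h, 1081 CPM at 3 d and 399 CPM in naive pericytes, with all 8 higher at 3 d, and erythroid markers, led by Hbb-bs, were at 52.2, 7960.2 and 163 CPM, with Slc4a1 among those at 0 in all 3 libraries. Their part in the higher genes was not tested.

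Microglia had the fewest genes past 2-fold of the 6 classes, and the cytokine genes Tnf and Ccl3 were among the lower ones. Of the genes compared 11 of 3925 were lower at 3 d (0.28%) and 2 were higher (0.051%). By the mean of per-cell CPM 4 genes were lower and 2 higher. Without the 5 richest cells of each gene in each library 3 were lower and 7 higher, but this takes 1.86% of microglia at 24 h and 0.414% at 3 d, and with the same share left out in both libraries the counts were 11 and 2. Tnf (ENSMUSG00000024401, chr17:35199381-35202007, minus strand, GRCm38), the cytokine tumour necrosis factor, measured 43.7 CPM in the naive library, 188 CPM at 24 h and 50.1 CPM at 3 d (log2 ratio -1.91, interval -2.09 to -1.73). Ccl3, a chemokine that draws immune cells, measured 401, 874 and 411 CPM in that order (-1.09, interval -1.16 to -1.01), and had -0.99 by the mean of per-cell CPM. Both had returned to about their naive level. They were the lower members among 12 chemokine and cytokine genes past the floor, where none was higher, 4 had a ratio above 0 with Ccl12 the largest (0.99) and the median was -0.28 against 0.04 over all genes. The list's median was 0.02 with the same share of the richest cells of each gene left out in both libraries. Lilrb4a (ENSMUSG00000112148, chr10:51490956-51496611, plus strand, GRCm38), an inhibitory receptor that rises on activated microglia, had the lowest ratio, with 2.19 CPM in the naive library, 98.8 CPM at 24 h and 8.05 CPM at 3 d (log2 ratio -3.62, interval -4.00 to -3.25). Its UMIs came from 43 of 269 cells at 24 h and 52 of 1207 at 3 d, so the change sat in a minority of the cells. Lpl, a lipase of lipid-loaded microglia, measured 13.5, 204 and 25.4 CPM (-3.01), with more than 50% of its UMIs at 24 h in 5 cells. Lilrb4a and Lpl were the lower members of 19 disease-associated microglia genes past the floor, of which 17 had a ratio below 0 (median -0.19). Apoe, a lipid carrier on the same list, measured 412, 320.4 and 627 CPM and did not pass 2-fold (0.97, interval 0.87 to 1.07). Cstb, a cathepsin inhibitor (-1.14), the olfactory receptor gene Olfr111 (-1.04) and Nme1, a nucleoside diphosphate kinase (-1.01), were lower as well, and Cpd (-0.99) came just under 2-fold. Of the microglial genes that the study names, Ddit4, P2ry12 and Cx3cr1 were past the floor, and none of these 3 passed 2-fold between the TIA libraries. Ddit4 measured 7.22 CPM in the naive library, 123 CPM at 24 h and 64.6 CPM at 3 d (log2 ratio -0.93, interval -1.12 to -0.73), above naive at both times and higher at 24 h. Cd300lf, an inhibitory receptor, measured 1.42, 16.3 and 8.56 CPM in that order and lay under the floor. S100a8 and S100a9 lay under it as well, with 0 UMIs in the 269 cells at 24 h and 29 and 31 UMIs in 25 and 28 of the 1207 cells at 3 d. Other classes held scattered UMIs of both genes at 3 d as well, 29 and 36 in 29 and 35 of the 1427 astrocytes and 10 and 17 in 10 and 15 of the 625 endothelial cells. P2ry12, the purinergic receptor through which microglia sense nucleotides, measured 2779, 1665 and 2224 CPM (0.42, interval 0.37 to 0.46). Cx3cr1, the fractalkine receptor, measured 4756, 4474 and 4179.9 CPM (-0.10, interval -0.13 to -0.07). P2ry12 was lowest at 24 h and in between at 3 d. Of 30 homeostatic microglia genes, all past the floor, none passed 2-fold, 22 had a ratio above 0 and the median was 0.14. Their summed level was 68949.7 CPM in the naive library, 53043 CPM at 24 h and 56071 CPM at 3 d.

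The type I interferon list had a higher summed level in microglia at 3 d than at 24 h or in the naive library, though each member compared stayed within 2-fold. Of 65 genes on the type I interferon list 63 were in the deposited table and 15 passed the floor, 14 of these had a ratio above 0, and none was called higher. The other members in the table lay under the floor and were not compared. The median was 0.62 against 0.04 over all genes, of which 56.3% lay above 0. The summed level of the 63 genes was 1665 CPM in the naive library, 1608 CPM at 24 h and 2724 CPM at 3 d, so it was no higher at 24 h than in naive microglia. Ccl12, a chemokine, measured 146 CPM in the naive library, 166 CPM at 24 h and 331 CPM at 3 d (log2 ratio 0.99, interval 0.85 to 1.14). Eif2ak2, the kinase PKR that senses double-stranded RNA, measured 59.9, 43.7 and 80.6 CPM (0.89, interval 0.60 to 1.18). Slfn2 of the Schlafen family measured 29.4, 38.5 and 72.7 CPM (0.92), Parp14, an ADP-ribosyltransferase, 64.1, 47.0 and 84.6 CPM (0.85) and Trim30a 117, 109.5 and 191 CPM (0.80). In these 5 genes the 3 d library was the highest of the 3. The 2 genes called higher in microglia were Rnf213, an interferon-inducible ubiquitin ligase (ENSMUSG00000070327, chr11:119393100-119487418, plus strand, GRCm38), and Lst1. Rnf213 measured 56.2 CPM in the naive library, 48.8 CPM at 24 h and 97.9 CPM at 3 d (log2 ratio 1.00, interval 0.74 to 1.28). Lst1 measured 191 CPM in the naive library, 69.6 CPM at 24 h and 139 CPM at 3 d (1.00, interval 0.78 to 1.23), so at 3 d it was still under its naive level. Both lay on the limit of the call, and scaling by the median ratio of genes left neither past it. Itga9 (0.83) and Npnt (0.81), an integrin subunit and a matrix ligand of integrins, were the other leading genes and stayed within 2-fold. The higher level was spread unevenly over the cells. With each microglial cell thinned to 2000 UMIs in 20 draws, the median draw gave 127 of 1199 cells with at least 10 UMIs from the interferon list at 3 d (10.6%, interval 8.91 to 12.5%). At 24 h it gave 6 of 266 (2.26%, interval 0.832 to 4.84%) and in the naive library 20 of 961 (2.08%, interval 1.28 to 3.20%). Cells rich in these transcripts were thus more frequent at 3 d, and the intervals of the 24 h and naive libraries overlapped. The limit of 10 UMIs was chosen after the values were seen, and without thinning the shares were 58.7%, 65.4% and 45.1% at median depths of 7649, 9335 and 7785 UMIs. Microglia formed a large cluster and a smaller one led by Cxcl10, Ccl12, Ccl2 and Tnf, and the smaller one held 24.5% of microglia at 24 h and 24.3% at 3 d. Its leading genes mixed cytokine and interferon-responsive genes, and 3 other settings split the 2 kinds. With the TIA libraries clustered alone microglia formed 1 cluster, of 290 cells at 24 h and 1272 at 3 d. At resolution 1 the cluster led by Cxcl10, Ccl12 and Ifi204 held 4 of 268 microglia (1.49%) at 24 h and 163 of 1206 microglia (13.5%) at 3 d, without regression 4 of 284 microglia (1.41%) and 151 of 1328 microglia (11.4%), and under the looser cell filter 5 of 266 microglia (1.88%) and 160 of 1190 microglia (13.4%). The cluster led by Tnf, Egr2, Ccl2 and Lpl went the other way, with 91 of 268 (34.0%) at 24 h and 215 of 1206 (17.8%) at 3 d at resolution 1, 58 of 284 (20.4%) and 101 of 1328 (7.61%) without regression and 57 of 266 (21.4%) and 103 of 1190 (8.65%) under the looser filter. In these 3 settings the interferon cluster was thus more frequent at 3 d and the cytokine cluster less frequent, and both were looked for after the values were seen. In endothelial cells 26 members of the interferon list passed the floor, none was called in either direction and the median was 0.21 against -0.02. The 63 members in the table summed to 5031 CPM in the naive library, 3278 CPM at 24 h and 3920.2 CPM at 3 d, highest in the naive library, unlike in microglia. The difference between the classes was not tested.

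Promoters of 3 interferon members that leaned up in microglia are shown with the core of the element that interferon-activated factors bind. This core, GAAA, 2 bases of any kind and GAAA, or TTTC in its place on the other strand, was found in 1131 of the 32851 RefSeq promoters (3.44%). Of the 65 genes on the list 51 had a promoter in the table and 28 of these held the motif. A gene counts here if any of its promoters holds the motif, while the 3.44% is a share of single promoters. Among the 15 members past the floor in microglia 11 had a promoter and 6 held it: Bst2, Eif2ak2, Gbp7, Shisa5, Slfn8 and Trim30a. The first base of the motif, in capitals, lies 18 bases after the start in Eif2ak2 (chr17:78882523-78882822), 36 bases before it in Trim30a (chr7:104465144-104465443) and 48 bases before it in Slfn8 (chr11:83020761-83021060), all on the minus strand of GRCm38.p6. The list was chosen for its known response to interferon, so the matches describe the letters only.
Eif2ak2: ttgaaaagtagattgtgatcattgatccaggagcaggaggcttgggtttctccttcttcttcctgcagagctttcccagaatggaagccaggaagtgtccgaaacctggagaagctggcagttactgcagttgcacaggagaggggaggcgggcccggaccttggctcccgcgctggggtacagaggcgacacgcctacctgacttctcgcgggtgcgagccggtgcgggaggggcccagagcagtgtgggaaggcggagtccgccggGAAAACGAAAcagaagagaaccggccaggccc
Trim30a: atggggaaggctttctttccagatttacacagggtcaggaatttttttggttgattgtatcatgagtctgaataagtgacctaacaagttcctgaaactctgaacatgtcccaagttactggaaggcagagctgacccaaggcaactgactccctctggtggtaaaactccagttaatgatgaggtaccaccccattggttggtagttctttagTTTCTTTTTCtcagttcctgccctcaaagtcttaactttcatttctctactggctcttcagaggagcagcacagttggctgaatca
Slfn8: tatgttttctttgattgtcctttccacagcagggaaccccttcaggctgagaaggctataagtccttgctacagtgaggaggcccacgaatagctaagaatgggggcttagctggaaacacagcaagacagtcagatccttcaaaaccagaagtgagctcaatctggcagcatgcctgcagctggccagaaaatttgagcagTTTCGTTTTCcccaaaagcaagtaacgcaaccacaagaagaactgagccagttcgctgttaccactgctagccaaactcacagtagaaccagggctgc

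Few genes passed 2-fold in neurons, the class in which the progenitor marker Sox11 lay above Stmn2 at both times after TIA. In neurons 13 of 3749 genes were lower at 3 d (0.347%) and 13 were higher (0.347%). The counts depended on the setting, with 27 higher at resolution 1 and 35 without regression. By the mean of per-cell CPM 30 were lower and 19 higher. Without the 5 richest cells of each gene in each library 4 were lower and 40 higher. Kcnc2, a fast voltage-gated potassium channel, measured 108 CPM in the naive library, 182 CPM at 24 h and 74.1 CPM at 3 d (log2 ratio -1.30, interval -1.58 to -1.01). Arpp21, a phosphoprotein of dopamine-responsive neurons, measured 72.7, 87.1 and 31.7 CPM in that order (-1.46, interval -1.88 to -1.04), and Dlg2, a postsynaptic scaffold, 255, 301 and 142 CPM (-1.08). All 3 ended below the naive level. The sorting receptor gene Sorcs3 (-1.23) and the protocadherin gene Pcdh15, at the 2-fold limit, were also called lower. With the same share of the richest cells left out in both libraries Kcnc2 had -1.70, Arpp21 -1.62, Dlg2 -1.19 and Pcdh15 -1.47, and 10 genes were lower and 7 higher. Kcnip1, which modulates potassium channels, came just under 2-fold (-0.90). None of the 8 leading higher genes in neurons passed 2-fold, with Tshz2 first (168, 108 and 210.4 CPM, log2 ratio 0.97) and Ripor2 next (0.96). The genes that did pass failed the naming rule, and they include the astrocyte marker Slc1a2. Summed over 8 microglial markers, neurons held 152 CPM at 24 h, 499.9 CPM at 3 d and 599 CPM in the naive library. Over 10 astrocyte markers they held 549, 1122 and 1177 CPM. Of 28 neuroblast and neuronal genes past the floor none passed 2-fold, and their median was -0.08. Immediate early genes, which neuronal activity induces, had a median of 0.03 over 8 members, with none past 2-fold.

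Of 1584 genes past the floor in all 6 classes, 1 was lower at 3 d in all 6. This was Cdk8 (ENSMUSG00000029635, chr5:146231230-146302874, plus strand, GRCm38), a kinase of the Mediator complex. It measured 1573 CPM in the naive library, 2065 CPM at 24 h and 849 CPM at 3 d in microglia and 3658, 4927 and 1889.8 CPM in endothelial cells. Its log2 ratio ran from -1.42 in pericytes to -1.21 in astrocytes, and its level at 3 d lay below the naive one in every class. Levels of Cmss1, Gm42418, Gm26917, Lars2 and Malat1 were chosen for a look after these values were seen. Lars2 was lower at 3 d in all 6 classes, with 770 CPM at 24 h and 500 CPM at 3 d in endothelial cells. Gm26917 and Malat1 were not, with 43.2 and 47.8 CPM and 28521 and 33289 CPM in endothelial cells. Cmss1 measured 3903 CPM in the naive library, 3371 CPM at 24 h and 1988 CPM at 3 d in microglia. In neurons it measured 3160, 3566 and 1931 CPM in that order (-0.88). Gm42418, a gene model known for collecting ribosomal RNA reads, measured 17883, 12535 and 8663 CPM in microglia. In endothelial cells it measured 39235, 31214 and 21373 CPM. Unlike Cdk8, Gm42418 was highest in the naive library in all 6 classes. Cmss1 and Gm42418 were, like Lars2, lower at 3 d than at 24 h in all 6 classes. Whether these 3 and Cdk8 share a source that differs between the libraries was not tested. Il31ra, a subunit of a cytokine receptor linked to itch, passed the floor in 4 classes and was lower in all 4. Its endothelial values were singled out after they were seen. It measured 91.6, 127 and 49.6 CPM in endothelial cells in the naive library, at 24 h and at 3 d, with log2 ratios from -1.78 in oligodendrocytes to -1.33 in astrocytes. Cdkn1a passed in 3 classes and was lower in all 3, with 232, 576 and 287 CPM in endothelial cells (-1.01, interval -1.15 to -0.86). In endothelial cells, unlike in glia, the naive level of Cdkn1a was already high, and the 3 d level was close to it. On the higher side Cx3cr1, a marker of microglia, was called in 5 of the 6 classes, in each case outside microglia. Its part in the counts of those classes was not tested.

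**Figure D4:**
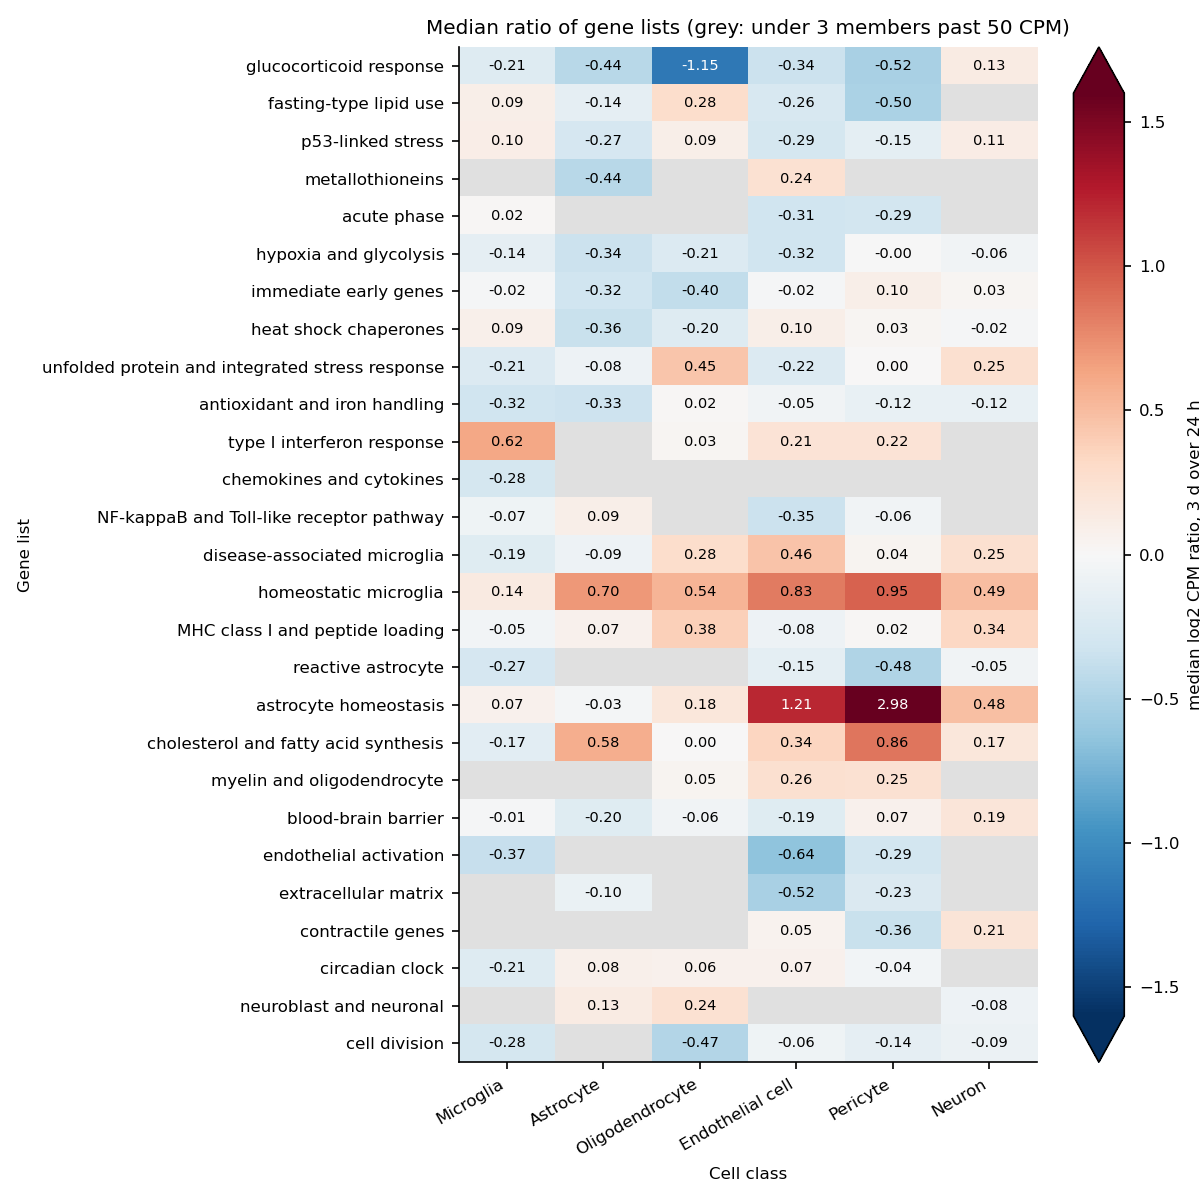
Median log2 ratio of CPM at 3 d over 24 h (colour and printed value) over the members past 50 CPM of 27 of the 32 gene lists (vertical) in the 6 classes (horizontal), 1 pooled library a side. Grey cells have fewer than 3 such members. Among the lists not shown is complement, with medians past 2-fold in the vascular classes that changed sign under several alternatives. The glucocorticoid list in oligodendrocytes (-1.15) is the lowest value shown, and lists of microglial and astrocyte genes read high in the vascular classes, where RNA of other cells was higher at 3 d.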

How the data were processed

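The deposited matrices hold raw UMI counts per gene and cell, which the authors made with 10x 3′ sequencing, alignment to mm10 and counting in Cell Ranger (7.1.0 in the file headers, 3.1.0 in the processing notes). Each of the 3 libraries pooled 3 mice, and the files held 4804 naive cells, 1619 cells at 24 h and 5505 at 3 d. Cells with at least 500 genes and at most 7% mitochondrial UMIs and genes seen in at least 3 cells were kept. Seurat 5.3.0 in R 4.3.3 clustered the cells of all 3 libraries together after log normalization, with 2000 variable features, UMIs and mitochondrial share regressed out, 20 principal components and a resolution of 0.5. Each cluster took the name of the type with most markers, at least 3, found in at least 10% of the cluster and at least 2-fold above the other clusters. It stayed unnamed if its leading genes held more markers of another type, or if it was shallow and its leading genes held no marker. Clusters without such a name, and classes with fewer than 50 cells in either TIA library, were left out of the comparison. Doublets were scored with Scrublet in scanpy 1.11.5 and kept except in 1 alternative.

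UMIs were summed per class and library and scaled to CPM with Python 3.11.15, numpy 2.4.6, scipy 1.17.1 and pandas 2.3.3. Genes with a mean of at least 50 CPM over the 2 TIA libraries were compared, and those at least 2-fold apart were counted as higher or lower. A library at 0 was set to 3 UMIs. Ratios have exact conditional binomial intervals and shares of cells exact Clopper-Pearson intervals, at 95%. Both cover counting error only, and no test was made, since each time has 1 library. The calculation was tested on simulated data. For shares of cells with a transcript, cells were thinned to 2000 UMIs. For the interferon list this was repeated in 20 draws.

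The genes named are the 8 largest and 8 smallest ratios per class among genes with UMIs in at least 10 cells of the higher library and at most 50% of its UMIs there in 5 cells. They are not mitochondrial, ribosomal, hemoglobin or predicted genes or markers of another type, and they reach at least 0.2 times their highest CPM among the classes. Named too are, for a list described in a class, up to 4 members with the largest ratios and 2 with the highest CPM, and the genes that the study names. Lists of genes, 32 in all, are described by counts and medians beside those of all genes compared. The members compared and the lists were chosen with earlier results of these data known. Alternatives changed the cells clustered, the resolution, the regression, the cell filter, doublets, scaling, the weight of cells, the 5 richest cells, RNA of other classes and the floor, and, chosen after seeing the data, the same share of richest cells in both libraries and the genes counted.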

Additional observations from a re-analysis of the deposited data

Results flagged for a closer look

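Htra1, a secreted serine protease, moved in opposite directions in 2 classes. In oligodendrocytes it measured 124 CPM in the naive library, 626 CPM at 24 h and 235 CPM at 3 d (log2 ratio -1.42, interval -1.56 to -1.27). In pericytes it measured 127, 59.1 and 144 CPM in that order (1.29, interval 0.87 to 1.72), with 46.5% of its UMIs at 3 d in 5 cells. Pde10a did likewise, with 90.2, 130 and 55.4 CPM in astrocytes (-1.23, interval -1.41 to -1.05) and 42.8, 36.5 and 105 CPM in pericytes (1.53, interval 1.01 to 2.09). In pericytes the call did not hold with the TIA libraries clustered alone (-0.054). In astrocytes the ratio was -0.91 without 5 cells of each library and -1.26 with the same share of cells left out in both. Each gene was called lower in 1 class and higher in another, with 1 pooled library a side, and the difference between the classes was not tested.

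A signal appeared in cells that no comparison used. An unnamed cluster of 172 cells at 3 d held 14009 UMIs of S100a8 and 13814 UMIs of S100a9, genes that neutrophils express at high levels. In the naive library the same cluster, with 104 cells, held 964 and 1012 UMIs, all in 1 cell, and at 24 h, with 35 cells, it held 2 and 17 UMIs, again in 1 cell. At 3 d S100a8 was seen in 26 cells and S100a9 in 21, and the 5 richest cells held 9542 and 9397 UMIs. The signal thus lay above the naive level in few cells of 1 library.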

How the results depend on the processing

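No paired analysis was possible because each time has 1 pooled library. For the numbers of genes past 2-fold in the 6 classes, 86 of 144 values under the alternatives lay within 1.5 times the count reported, and 58 did not. With the TIA libraries clustered alone, 1 gene was higher at 3 d in microglia, 67 in endothelial cells and 21 in neurons. At resolution 1 these counts were 1, 27 and 27, and without regression 4, 22 and 35. Leaving out only cells that fail both parts of the filter gave 20 higher endothelial genes. Without doublets 22 genes were higher in endothelial cells and 15 in pericytes. Scaling by the median ratio of genes, which shifted all ratios by at most 0.038, left 0 higher in microglia. The mean of per-cell CPM gave 4 lower genes in microglia, 45 higher in endothelial cells, 40 higher in pericytes and 30 lower in neurons. Without the 5 richest cells of each gene 7 genes were higher and 3 lower in microglia, 39 and 12 in astrocytes, 70 and 20 in endothelial cells and 40 and 4 in neurons, with 32 lower in oligodendrocytes and 43 higher in pericytes. This alternative takes 5 cells from each library, a larger share of the smaller 24 h library (2.09% of astrocytes at 24 h and 0.35% at 3 d), which lowers the levels at 24 h more and can shift ratios towards higher at 3 d. An alternative chosen after seeing the data therefore left out the same share of cells in both libraries. It gave 30 higher genes in oligodendrocytes, 22 in endothelial cells, 14 in pericytes and 7 in neurons, while the lower genes in each of the 6 classes stayed within 1.5 times the count reported. A floor of 20 CPM gave 22 higher and 30 lower genes in microglia, 68 and 59 in astrocytes, 191 and 92 in oligodendrocytes, 283 and 64 in endothelial cells, 329 and 64 in pericytes and 101 and 40 in neurons. No floor gave 836 and 683, 1342 and 878, 1794 and 505, 1970 and 422, 1796 and 435, and 1353 and 519 in the same order. More genes are compared under a lower floor. Another alternative chosen after seeing the data, without hemoglobin, markers of other types and genes with over 50% of their UMIs in 5 cells, left 68 higher genes in endothelial cells, 47 in pericytes and 7 in neurons. Apart from the floors and this last alternative, which change the genes counted, and the unequal shares of cells, the cause was not tested.

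Leaving out only cells that fail both parts of the filter moved the share of microglia to 18.1% at 24 h and 21.9% at 3 d, endothelial cells to 15.1% and 10.1% and neurons to 5.31% and 5.24%. At 3 d it moved astrocytes to 31.9% and oligodendrocytes to 6.42%. Resolution 1 gave 12% and 9.10% endothelial cells, and clustering the TIA libraries alone 26.6% microglia at 3 d. The remaining 37 of 48 shares kept within their intervals. At resolution 1 a cluster with 10 endothelial markers, of 82 cells at 24 h and 156 at 3 d, stayed unnamed and was not counted. Under the looser filter so did clusters with 8 neuron markers (44 and 118 cells) and 10 endothelial markers (55 and 128 cells). Their part in the shares that moved, and any other cause, was not tested.

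Of 6823 values for named genes, 5854 lay within the counting interval, 960 outside it in the same direction or for a gene not called, and 9 called ratios reversed. Nrxn3 in endothelial cells went from 1.67 to -0.72 at resolution 1, -0.66 without doublets, -0.42 without the 5 richest cells and -0.91 with the same share of cells left out, and in oligodendrocytes from 2.56 to -0.50 with that share left out. Acta2 in pericytes had 2.26 without the 5 richest cells and 0.92 with the same share left out, and Tagln 0.22 without the 5 richest cells, though -1.34 with the same share left out. Pde10a in pericytes had -0.054 with the TIA libraries clustered alone. The cause was not tested. Cdkn1a in oligodendrocytes kept between -5.64 and -4.48 under all 9 alternatives run for genes, Tnf in microglia between -2.02 and -1.51 and Ctla2a in endothelial cells between -2.31 and -2.06. Sgk1 in oligodendrocytes ranged from -1.11 to -0.93 and Ccl3 in microglia from -1.22 to -0.95, in part under 2-fold.

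Of 1410 list medians 141 changed sign, and 9 of these had been past 2-fold, all of the complement list. Its median in endothelial cells, 1.79, became -0.69 at resolution 1, -0.66 without regression, -0.60 under the looser filter, -0.67 without doublets, -0.20 by per-cell CPM, -0.10 without the 5 richest cells and -0.38 with the same share of cells left out. In pericytes, at 1.58, it became -0.56 without doublets and -0.20 by per-cell CPM. The cause was not tested.

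The planned restriction to cells almost free of other classes' marker RNA, with no more than 1 such UMI, gave no value, since at most 28 cells of a class remained at 24 h. The 24 h library had 1225 cells and 11803258 UMIs against 4781 cells and 46270816 UMIs at 3 d, and its fewer counts widen the intervals.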
